A study of Saccharomyces cerevisiae with 7 samples.

Results

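The PIR proteins (proteins with internal repeats) are a family of 5 budding yeast genes: PIR1 (YKL164C), HSP150 (YJL159W, also called PIR2), PIR3 (YKL163W), CIS3 (YJL158C, also called PIR4) and PIR5 (YJL160C). They were taken by systematic name from a table of 6141 open reading frames of Saccharomyces cerevisiae. All 5 have a row, but the row of PIR1 is empty at all times, so values exist for PIR5 and for 3 of its 4 vegetative relatives. PIR5 was chosen by its log2 ratios to 0 h, as the gene with the highest value of the table; its values and its distance from its relatives are therefore described without a test.

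PIR proteins are secreted, heavily O-mannosylated proteins of the yeast cell wall. The protease Kex2 cuts their propeptide in the Golgi, and glutamines in the short repeats that name the family form an alkali-sensitive ester bond with the wall's beta-1,3-glucan. In growing cells they strengthen the wall, and the cell wall integrity pathway with its transcription factor Rlm1 and the late mitotic factor Swi5 are known regulators of family members. A sporulating cell builds a different, layered wall around each spore after the meiotic divisions, and PIR5 is the member known from sporulation.

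The cells carried spo11-Y135F, an allele that replaces the catalytic tyrosine of Spo11, the protein that makes the DNA breaks of meiotic recombination. Cells entering meiosis were sampled after 1, 2, 3, 4, 5, 6 and 8 h, and each time has 1 column of values. The design states duplicates from 2 independent cultures, but how they enter a column is unknown here. The hybridisations set mRNA of that time (Cy5) against a mixture of mRNA from all times (Cy3). A deposited value is the log2 of this ratio after division by the same ratio at 0 h, so 1 means that the gene's share of mRNA was 2-fold that of 0 h. No other genotype was analysed here, all times share the mutation, and no time has a replicate value; sizes at single times describe these columns. The values are of whole cultures, in which fewer cells with a transcript and less transcript per cell cannot be told apart. A ratio to a gene's own 0 h says nothing of its abundance next to another gene. Probe sequences of the array were not given in the sources used here, so signal shared between PIR genes through their similar repeats was not tested.

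All counts are over the 5585 complete rows, those measured at each of the 7 times. Column medians lay between -0.15 and 0.03 and standard deviations between 0.84 and 1.49. The 6 h column had the widest spread and a different set of empty rows from the other columns, with 5906 values against 5635. Values of the PIR genes that rest on it are therefore given with and without it or beside the 5 and 8 h values. Markers of meiosis and sporulation were present: REC8, of meiotic cohesin, reached 5.99 at 3 h, NDT80 had 1.74 at 3 h and 5.17 at 4 h, and DIT1, of the outermost spore wall layer, reached 8.52 at 8 h. Of the mating markers MFA1, MFA2, STE2 and STE3, 2 reached 2-fold above 0 h, MFA1 with 1.19 and STE3 with 4.60 at 6 h. The share of all rows that high in the 6 h column was 18.9%. MFA1 rests on this column, with 0.24 at 5 h and -0.04 at 8 h. Without it only STE3 remained, with 3.03, 3.21 and 2.52 at 4, 5 and 8 h. MFALPHA1 had no complete row.

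PIR5, the sporulation member, lay between 1.21-fold below and 2.23-fold above its 0 h share in the first 3 hours and far above it afterwards. Its log2 ratios were 1.12, 1.16, -0.27, 3.94, 6.72, 9.89 and 7.45 at 1, 2, 3, 4, 5, 6 and 8 h. The values of 4 h and later were all above those of 1 to 3 h, and 3 h held the lowest. From 3 to 6 h the log2 ratio differed by 10.16, an 1147-fold difference in the deposited ratio, with signal over background unknown. This range of PIR5 was the widest of any row, against a median range of 1.53 over all rows. Without the 6 h column its range was 7.72 (210-fold), the 5th widest, and that of DIT1 was the widest with 8.91.

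The order of PIR5 among the 5585 rows changed in the same way. Counted from the highest value it held places 462, 352 and 3631 at 1, 2 and 3 h. It then held places 57, 15, 1 and 5 at 4, 5, 6 and 8 h. A place within a column does not change when a column is centred or rescaled. At 6 h PIR5 was therefore the top row whatever the scaling, while at 5 h SPS2 and at 8 h DIT1 were above it.

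Steps between neighbouring times do not depend on the 0 h ratio if it was shared by both columns. PIR5 was 18.5-fold higher at 4 h than at 3 h (step 4.21, place 16 from the top of 5585 steps). It was a further 6.89-fold higher at 5 h (2.78, place 8) and 9.00-fold higher at 6 h (3.17, place 11). Over the same 3 intervals the median step of all rows lay between -0.06 and -0.03. The step from 2 to 3 h was -1.43, place 112 from the bottom, and that from 6 to 8 h was -2.45, place 47 from the bottom. PIR5 thus had large steps in both directions, with 3 consecutive steps among the 16 largest increases of their intervals.

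The 6 h value of PIR5 lay 2.81 above the mean of its 5 and 8 h values. Without the 6 h column its highest value was 7.45 at 8 h, and DIT1 (8.52 at 8 h) held the highest value of the table. Slope over time, as a description, was 1.34 ± 0.28 log2 per hour (limma, SE from scatter around a line over 7 times) and 1.12 ± 0.23 without 6 h. The rows next below PIR5 in highest value were SPR28, a sporulation septin, at 9.11, HXT14, of the hexose transporter family, at 9.05, the unnamed frame YPR078C at 9.02 and SPS2, a sporulation gene, at 9.00, all at 6 h. PIR5 thus exceeded the next row by less than 1 on the log2 scale.

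**Figure D1:**
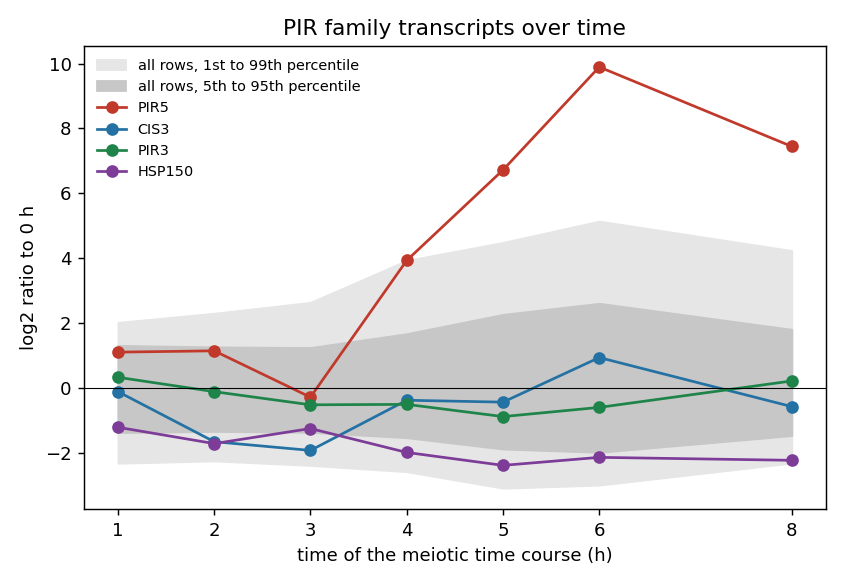
Log2 ratio to 0 h (vertical axis) of the 4 measured PIR genes against time in hours (horizontal axis), 1 deposited value per point. Grey bands span the 1st to 99th and the 5th to 95th percentile of the 5585 complete rows; PIR5 is at -0.27 at 3 h and 9.89 at 6 h, while its relatives stay between -2.37 and 0.95.

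None of the 3 measured relatives reached 2-fold above 0 h in the deposited values, and their courses differed from each other. CIS3 had its lowest value at 3 h and its highest at 6 h, as PIR5 did, over a much narrower range. HSP150, a secreted wall glycoprotein induced by heat shock in growing cells, was below 0 h throughout. Its log2 ratios were -1.20, -1.70, -1.23, -1.97, -2.37, -2.12 and -2.21 at 1, 2, 3, 4, 5, 6 and 8 h. All 7 values were more than 2-fold below 0 h, which held for 52 of 5585 rows (0.931%), and it stood between places 5212 and 5516 from the top at every time. The lowest value, at 5 h, was 2.25-fold below the highest, at 1 h. The 1 to 3 h values were all above those of 4 to 8 h. An error in the 0 h measurement would shift all values of a row together. The range within the course, 1.17, does not contain it if all columns share that measurement, and was below the median range of all rows.

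PIR3, which takes part in wall stability, stayed near its 0 h share. The log2 ratios were 0.34, -0.10, -0.51, -0.49, -0.87, -0.58 and 0.23 at 1, 2, 3, 4, 5, 6 and 8 h. It was within 2-fold of 0 h at all 7 times, as were 1918 of 5585 rows (34.3%). The values of 1 and 8 h lay above 0 and the 5 between them below. Its step from 6 to 8 h, 0.81, was its largest. PIR1, next to PIR3 on chromosome XI, has no value in the table.

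CIS3, a wall glycoprotein of the same family, was low early and highest at 6 h. The log2 ratios were -0.10, -1.64, -1.91, -0.36, -0.42, 0.95 and -0.56 at 1, 2, 3, 4, 5, 6 and 8 h. It was at least 2-fold below 0 h at 2 and 3 h, as were 9.35% and 8.43% of all rows at these times. Only the 6 h value lay above 0. CIS3 was 2.91-fold lower at 2 h than at 1 h (step -1.54), place 27 from the bottom, where 2.88% of rows were at least 2-fold lower. From 3 to 4 h it was 2.92-fold higher (step 1.54), place 162 from the top, in the interval in which PIR5 had its largest step. Of all rows, 5.98% were at least 2-fold higher at 4 h than at 3 h. The 6 h value stood 1.44 above the mean of the 5 and 8 h values, and without the 6 h column the highest value of CIS3 was -0.10 at 1 h.

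**Figure D2:**
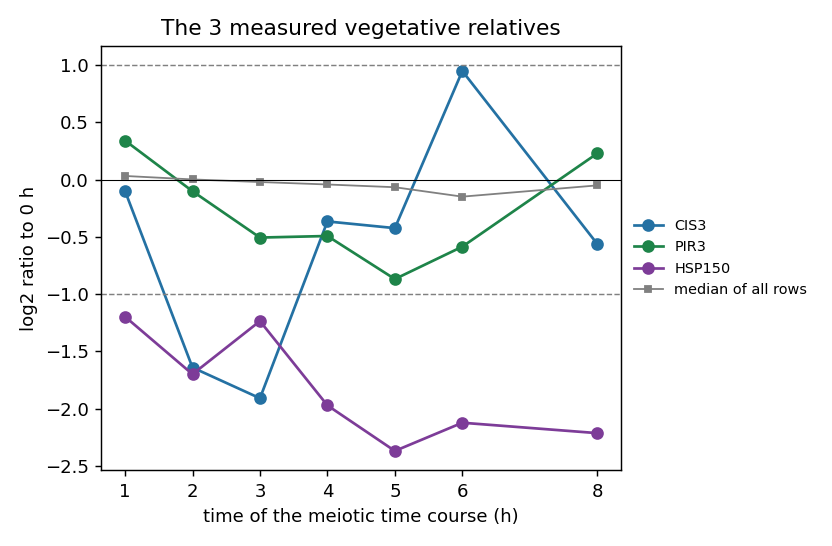
Log2 ratio to 0 h (vertical axis) of CIS3, PIR3 and HSP150 against time in hours, 1 deposited value per point, with the median of the 5585 complete rows in grey and dashed lines at 2-fold above and below 0 h. HSP150 lies below the lower line at every time, PIR3 between the lines, and CIS3 crosses from -1.91 at 3 h to 0.95 at 6 h.

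Whether the relatives had a trend over the time course was tested with limma as a slope per hour, fitted to all 5585 rows. None of the 3 passed: HSP150 had -0.16 ± 0.07 SE log2 per hour (limma adjusted p = 0.209), PIR3 -0.033 ± 0.082 (adjusted p = 0.847) and CIS3 0.15 ± 0.13 (adjusted p = 0.527). Over all rows, 75 genes (1.34%) had a rising and 40 (0.716%) a falling slope past an adjusted p of 0.05. A line does not describe courses such as those of CIS3 and PIR3, which turned within the 8 h, and the scatter around it is the only error estimate. Across 12 alternative fits the adjusted p of HSP150 lay between 0.143 and 0.465, that of PIR3 between 0.146 and 0.990 and that of CIS3 between 0.270 and 0.800. Without the 1 h column the slope of PIR3 turned to 0.049 (limma adjusted p = 0.829).

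The distance between PIR5 and its relatives was larger at 4 h and later than at any earlier time, and it was smallest at 3 h. PIR5 minus the median of the 3 relatives was 1.21, 2.80 and 0.96 at 1, 2 and 3 h. The difference was 4.43, 7.59, 10.48 and 8.01 at 4, 5, 6 and 8 h, that is 21.5-fold at 4 h and 1426-fold at 6 h in change since 0 h. PIR5 was the highest of the 4 genes at every time, by 0.23 over PIR3 at 3 h and by 8.94 over CIS3 at 6 h. HSP150 was the lowest of them at every time except 3 h, when CIS3 was lower. The spread among the relatives themselves lay between 1.40 at 3 h and 3.07 at 6 h.

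As a description over the 7 times, which share their 0 h measurement, Pearson's r with PIR5 was 0.76 for CIS3, -0.29 for PIR3 and -0.86 for HSP150. Without 6 h these were 0.57, -0.13 and -0.93. Among the relatives r was 0.41 between HSP150 and PIR3, -0.44 between HSP150 and CIS3 and -0.07 between PIR3 and CIS3 (0.36, -0.36 and 0.20 without 6 h). HSP150, CIS3 and PIR5 lie next to each other on chromosome X in the R64 gene order, in the order PIR5, HSP150, CIS3. HSP150, which lies between the others and is read from the opposite strand by its name, was the member with the lowest r with both. By distance between the 7 values it was closer to CIS3 (4.49) than PIR5 was (15.02). The next gene on the PIR5 side, FMP33, has a value at 6 h only (-0.66), as has FAR1, a cyclin-dependent kinase inhibitor, on the CIS3 side (-0.58). JJJ2, beyond FMP33, was between -1.00 at 3 h and 1.05 at 5 h, and SSY5, beyond FAR1, was at 1.29 at 6 h, its only value. On chromosome XI, MCD4 beside PIR1 has no value, TPK3 beyond it lay between -0.66 and -0.07, and YKL162C beside PIR3 went from 0.79 at 1 h to -0.95 at 8 h. KDX1, beyond YKL162C, is described with the wall integrity genes.

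The named genes with the course most like that of PIR5, by Pearson correlation over the 7 times among 4685 named rows, were HYM1 (r = 0.998), CTS2 (0.993), HXT14 (0.989), CWP1 (0.989) and ECM8 (0.989). HYM1, a component of the RAM signalling network, had -0.26 at 3 h and 6.31 at 6 h. CTS2, a chitinase-like gene, had -0.76 at 3 h and 7.71 at 6 h. CWP1, a wall mannoprotein, shared the shape at a lower level, with -3.25 at 3 h and 4.63 at 6 h, a range of the course that began far below 0 h. ECM8 had -0.56 at 3 h and 5.51 at 6 h. All 5 had their lowest value at 3 h and their highest at 6 h, as PIR5 did. By distance between the 7 values in place of correlation, HXT14 and CTS2 stayed among the nearest 5, joined by SPS1, a sporulation kinase, SPR2 and SGA1, the sporulation glucoamylase. Without 6 h, CTS2 and HYM1 stayed.

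**Figure D3:**
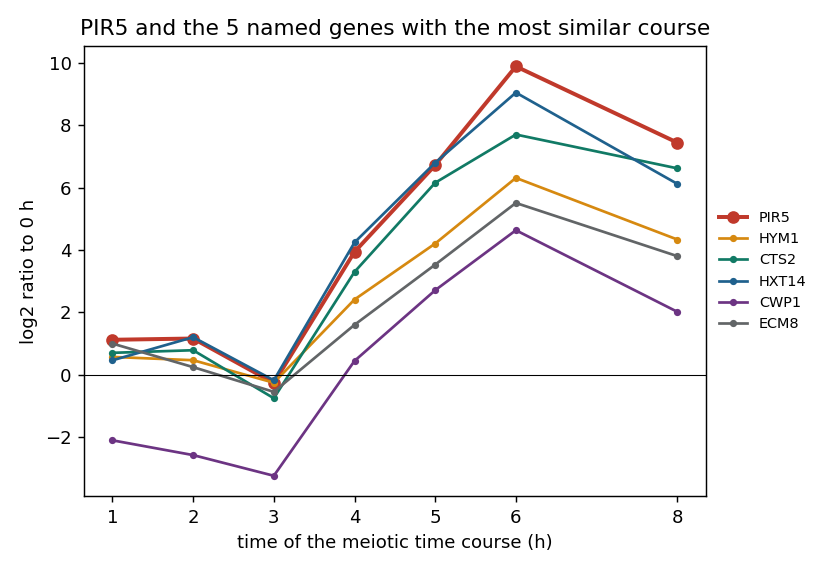
Log2 ratio to 0 h (vertical axis) of PIR5 and of the 5 named genes with the highest Pearson correlation with it, against time in hours, 1 deposited value per point. All 6 genes are lowest at 3 h and highest at 6 h; CWP1 runs from -3.25 to 4.63.

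The nearest genes to the relatives were of other kinds, and few stayed when the measure changed. For HSP150 they were UPS2, of mitochondrial lipid transfer (r = 0.968), ERG12, mevalonate kinase (0.964), and TMT1 (0.962). UPS2, which also was among the 3 nearest by distance, lay between -2.13 at 8 h and -0.73 at 3 h. For PIR3 they were ENO1, an enolase (0.980), AHP1, a thiol peroxidase (0.974), and PGM1, a phosphoglucomutase (0.970). ENO1 had a much wider range, from -5.22 at 5 h to -1.13 at 1 h. For CIS3 they were TIF4631, a translation initiation factor (0.964), IMG1, a mitochondrial ribosomal protein (0.944), and MSI1, a subunit of the chromatin assembly factor (0.941). By distance the nearest to CIS3 was CLB2, an M-phase cyclin, with -1.84 at 2 h and 0.87 at 6 h.

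Other wall proteins, outside the PIR family, included a few transcripts above and more below 0 h in the later columns. Of 22 listed mannoproteins and wall-associated proteins 19 had complete rows. In the 6 h column 11 of these genes lay 2-fold or more below 0 h (19.5% of all rows) and 2 lay 2-fold or more above it (18.9% of all rows), with a list median of -1.26 against -0.15 over all rows. In the 5 h column 9 lay that far below (17.4% of all rows) and 2 above (16.3%), with a median of -0.86. In the 8 h column 7 lay that far below (10.8%) and 3 above (12.3%), with a median of -0.22. CWP1 and CCW12 were the high ones at 5 and 6 h. CCW12, a major GPI-anchored wall protein, had 0.58, 0.30 and -0.01 at 1, 2 and 3 h and 1.19, 2.19, 3.20 and 3.03 at 4, 5, 6 and 8 h; its values from 4 h were all above the earlier ones. It rose by the slope test (0.48 ± 0.10 SE log2 per hour, limma adjusted p = 0.0496). CWP1 did not pass (adjusted p = 0.0637).

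Among the low wall transcripts, PST1, a GPI-anchored protein that responds to wall damage in growing cells, fell by the slope test, with 1.40, -2.03 and -1.27 at 1, 6 and 8 h (slope -0.46 ± 0.10 SE, limma adjusted p = 0.0496). YGP1, a secreted glycoprotein, was lowest of the list with -4.28 at 6 h and at its highest was at -1.29. Without 6 h its lowest value was -2.83 at 5 h, and the lowest of the list was that of CWP1, -3.25 at 3 h. In the whole list of 19 complete rows 1 gene rose and 1 fell (1.34% and 0.716% of all rows). An unadjusted limma p under 0.05 was held by 3 rising and 5 falling (23.0% of all rows in either direction).

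**Figure D4:**
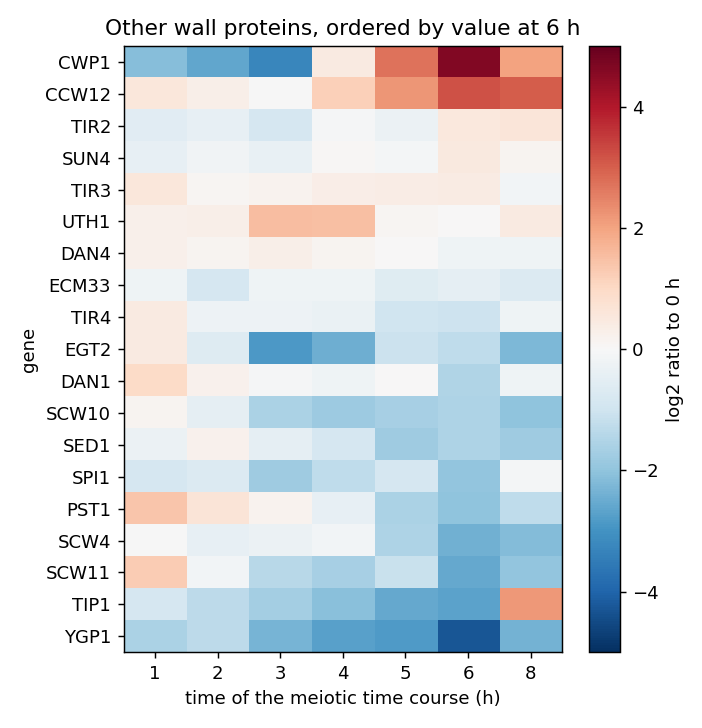
Log2 ratio to 0 h, by colour, of 19 wall mannoproteins and wall-associated proteins outside the PIR family (rows, ordered by the 6 h value) at each time in hours (columns), 1 deposited value per cell. CWP1 and CCW12 have the highest values at 5 and 6 h, and YGP1 reaches -4.28 at 6 h.

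The enzymes of the wall polymer to which PIR proteins bind held spore-specific genes with a step at the same time as PIR5. Of 17 listed glucan and chitin enzymes 15 had complete rows. At 4 h 6 of them lay 2-fold or more above 0 h (11.5% of all rows). At 3 h 4 already did, when the 95th percentile of all rows was 1.26. At 5, 6 and 8 h 6 lay that far above (16.3%, 18.9% and 12.3% of all rows). The number that far below at these times was 2, 3 and 3 (17.4%, 19.5% and 10.8%). The list median was 0.22, 0.58, 0.22, 0.57 and 0.92 at 3, 4, 5, 6 and 8 h. GAS4, a glucan elongase of the spore wall, went from 1.20 at 3 h to 5.22 at 4 h and 7.41 at 6 h, and its relative GAS2 from -0.41 at 3 h to 4.05 at 4 h and 5.90 at 5 h. CRH1, which joins chitin to glucan in vegetative walls, had -0.27 at 1 h and -2.71 at 8 h, and BGL2, a wall glucanase, had -1.68 at 5 h and 0.47 at 8 h. GAS2 and GAS4 rose and CRH1 fell by the slope test (limma adjusted p = 0.0496 for each). Over all rows 1.34% rose and 0.716% fell. In this list 5 rising and 1 falling had an unadjusted limma p under 0.05 (23.0% of all rows in either direction).

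The calls of these wall genes depend on single columns. Leaving out each time in turn, CCW12, PST1, GAS2, GAS4 and CRH1 each passed in 1 of 7 fits, the one without 8 h. Their highest limma adjusted p over the 7 fits was 0.192 to 0.195. Without the 1 h, the 2 h or the 6 h column no row of the table passed limma's adjusted threshold, while 955, 874 and 1143 rows had an unadjusted p under 0.05.

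Genes of the cell wall integrity pathway, which raises PIR transcripts in growing cells under wall stress, had their highest list median at 6 h. Of 18 listed genes 16 had complete rows. At 6 h 9 lay 2-fold or more above 0 h (18.9% of all rows) and 1 lay 2-fold or more below (19.5%). The list median was 0.53 at 5 h, 1.22 at 6 h and 0.37 at 8 h, so the high median rests on the 6 h column. At 5 h 3 lay 2-fold or more above 0 h (16.3% of all rows) and 1 that far below (17.4%). At 8 h 3 lay that far above (12.3%) and 2 below (10.8%). WSC2, a wall stress sensor, was at 1.72, 2.55 and 0.69 at 5, 6 and 8 h, and ROM2, which activates the GTPase Rho1, at 0.80, 2.52 and 0.96. KDX1, a kinase-like protein controlled by the pathway, had 1.33, 2.01 and 1.00 at these times. The sensors MTL1 and MID2 had the lowest values, -2.15 at 6 h and -1.03 at 8 h. At 5 h MTL1 had -1.58. SLT2, the pathway's MAP kinase, stayed between -1.00 and 0.42. No gene of the list passed limma's adjusted slope test. Of the 16 genes 5 rising and 1 falling had an unadjusted p under 0.05 (23.0% of all rows in either direction).

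Among transcription factors, NDT80, the activator of middle meiotic genes, had values of 1.51, 1.07, 1.74, 5.17, 7.24, 7.47 and 5.48 at 1, 2, 3, 4, 5, 6 and 8 h. Its 3 to 4 h step fell in the same interval as that of PIR5. The r of NDT80 with PIR5 was 0.93, as was that of ROM2, with 0.98 for CCW12, 0.57 for RLM1 and 0.38 for SWI5. The other listed factors ran from -0.77 (MSN4) to 0.82 (SKN7 and SUM1). These r include the 6 h column and are not given without it. Whether NDT80 acts on PIR5 was not tested. SWI5 had only values below 0 h, the lowest -2.31 at 3 h and the highest -0.90 at 4 h. RLM1, the factor at the end of the integrity pathway, had 1.01, 1.80 and -0.01 at 4, 6 and 8 h. None of the 12 listed factors passed limma's adjusted slope test, with an unadjusted p under 0.05 for 2 rising and 1 falling (23.0% of all rows in either direction).

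The genes that process PIR proteins had values on both sides of 0 h. KEX2, the propeptide protease, lay between -0.39 at 1 h and 0.91 at 5 h. Of 14 genes of propeptide processing and O-mannosylation 12 had complete rows, with list medians from -0.38 (8 h) to 0.42 (6 h). Within 2-fold of 0 h throughout were 3 of the 12 (34.3% of all rows). PMT2 and PMT3, O-mannosyltransferases of the endoplasmic reticulum, were highest with 1.71 and 1.54 at 6 h. At 5 h they had 0.62 and 0.12, and both were below 0 h at 8 h, with -0.66 and -0.35. Without the 6 h column neither was the highest of the list. KRE2 and MNN1, Golgi mannosyltransferases that extend the chains, were lowest with -2.63 at 6 h and -1.95 at 5 h. KRE2 had -1.82 at 5 h. No gene of this list passed limma's adjusted slope test, and 0 rising and 2 falling had an unadjusted p under 0.05 (23.0% of all rows in either direction).

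Scaling of the columns changed the size of the late PIR5 values, and with it the place of PIR5 in the table. With quantile normalization PIR5 was at 7.04 at 6 h and with column medians and spreads made equal at 7.42; in the latter setting its highest value was 7.98 at 8 h, and the highest of the table was that of DIT1 with 9.12. Quantile normalization gives the top row of every column the same value, so there PIR5 shared the highest value, 7.04, with the top rows of the other columns. With column medians subtracted it was at 10.04 at 6 h. In all 4 settings PIR5 was at most 1.55 in the first 3 hours and at least 3.54 from 4 h on. HSP150 stayed more than 2-fold below 0 h at all 7 times in all 4, and PIR3 within 2-fold. CIS3 remained at least 2-fold below 0 h at 2 and 3 h, and reached 1.10 at 6 h with medians subtracted.

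**Figure D5:**
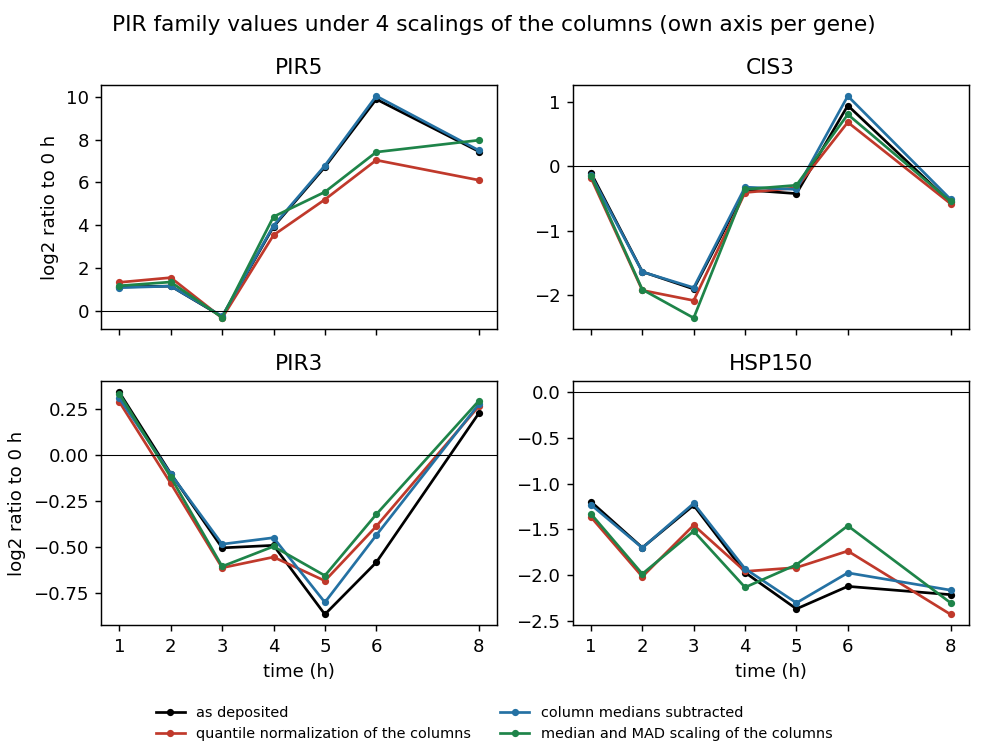
Log2 ratio to 0 h (vertical axes, a separate range for each gene) of the 4 measured PIR genes against time in hours, as deposited and after 3 rescalings of the columns, where MAD is the median absolute deviation. PIR5 at 6 h lies between 7.04 and 10.04 and from 1 to 3 h between -0.33 and 1.55.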

How the data were processed

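The table holds log2 ratios made by the authors: per the labels, Cy5 carried the time point and Cy3 a mixture of all time points, and per the series' design text the ratio was divided by that at 0 h. The design text states 2 independent cultures, but each time has 1 column; how the cultures enter it, and the platform, background correction and normalization, were not given in the sources used here. Of 6141 rows, 5585 were complete, 321 had a value at 6 h only, 50 lacked 6 h only and 185 were empty. Signal over background is unknown, and the number of arrays limits the precision. Gene names and gene order came from the R64 RefSeq table (5655 rows matched). No coordinates are given, since the array's build is not named. Sequences of the PIR proteins and promoters were not analysed here.

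Slopes came from limma 3.58.1 (lmFit and eBayes, with 5 residual degrees of freedom; R 4.3.3) and adjusted by Benjamini-Hochberg over 5585 rows. Times of 1 course are not independent, so these p-values rank rows. The fit was also run on simulated straight lines with independent scatter. Those lines lack the dependence between times, so they say nothing of the p-values here. Values, places, steps and likeness used numpy 2.4.6 and pandas 2.3.3, and figures matplotlib 3.10.9. Named were all members, 5 genes most like PIR5 and 3 most like each relative, the 4 next highest rows, neighbours and fixed regulators. In each list up to 2 genes with the highest maximum, 2 with the lowest minimum and those past the threshold were also named. SLT2, SPS1, SPR2, SGA1, CLB2, MSN4, SKN7 and SUM1 were named after their values were seen. Values of 1 listed gene are not reported here. Members and lists were chosen with earlier results of these data known. Alternatives were other scalings, fits, row filters, likeness measures and times left out.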

Additional observations from a re-analysis of the deposited data

How the results depend on the processing

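Quantile normalization and equal column medians and spreads lowered PIR5 at 6 h from 9.89 to 7.04 and 7.42, and its difference from the relatives' median from 10.48 to 7.43 and 7.74; with the relatives' mean every difference moved by less than 0.5. The number of rising slopes, 75 as reported, was 229 with quantile normalization, 39 with a variance trend and robust prior and 226 with the order of times in place of hours. Falling slopes, 40 as reported, were 201 and 141 with the first and the last of these and 16 with column medians subtracted. Leaving out each time gave 0 to 473 rising and 0 to 395 falling; the highest counts came without 8 h. PIR3's slope of -0.033 ran from -0.20 (without 8 h) to 0.049 (without 1 h); the other slopes of the relatives kept their sign and stayed past no threshold in 12 fits. Of the 5 genes most like PIR5, 2 were shared with the list by distance and 2 with that without 6 h. The relatives' lists of 3 shared 1 gene (HSP150, by distance) or 0. The causes were not tested. Places changed by less than 1.5 times when all rows with a value were ranked. The search for promoter motifs was not run. No paired analysis was possible because each time has 1 sample.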

Other observations

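TIP1, a wall mannoprotein named after its values were seen, moved against PIR5 late in the course. It was at -0.85, -1.32, -1.70, -2.11, -2.56 and -2.67 from 1 to 6 h and at 2.16 at 8 h. Its step of 4.82 from 6 to 8 h was the 4th largest of 5585, in an interval in which PIR5 had a step of -2.45 and CWP1 of -2.62. CCW12 had -0.17 in that interval. The step rests on 1 column at each end, and a 0 h ratio common to the 6 and 8 h columns is not stated.

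The low value of PIR5 at 3 h was looked at among other late genes. Of 33 rows other than PIR5 at 6 or more on the log2 scale at 6 h, 19 (57.6%) were lower at 3 h than at 2 h, against 50.4% of all rows, with a median step of -0.30 against -0.01. This is a description without a test, chosen after the course of PIR5 was seen.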
